A study of Mus musculus with 4 samples.

Results

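The promoters of the cytosolic ribosomal protein genes were followed in chromatin accessibility maps of mouse hematopoietic stem cells with and without Med23, a subunit of the mediator complex that links transcription factors to RNA polymerase II. A promoter peak was counted where the summit of an accessible region lay within 1000 bp of an annotated start site of a protein-coding gene whose symbol is Rpl or Rps with a number, or is Rplp0, Rplp1, Rplp2 or Rpsa. Pseudogenes and the Rps6k kinases were left out. The rule gave 86 genes, of which 77 encode subunits of the ribosome, 8 are paralogs (Rpl10l, Rpl22l1, Rpl36al, Rpl39l, Rpl3l, Rpl7l1, Rps27l and Rps27rt) and 1, Rps19bp1, encodes a binding protein of a subunit. They held 85 of the 37919 peaks of the WT list and 85 of the 37639 peaks of the KO list.

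ATAC-seq, in which the Tn5 transposase cuts and tags open chromatin, was performed on 5000 sorted bone marrow cells of C57BL/6 mice per library. The sort gate in the labels was lineage-negative, Sca-1+, Kit+ and CD150+CD34-CD48-, while the study's methods give it without CD34. WT mice carried the floxed Med23 alleles (Med23floxp/flowp) without cre, and KO mice carried the same alleles with Mx1-cre, which interferon induces. In the study's methods that deletion was brought about with poly(I:C), which can itself stress stem cells, and whether the WT mice of these libraries received it is not given in the sources used here. Each genotype had 2 libraries in the labels but 1 peak list, so the spread between animals could not be measured, no test between genotypes was possible and no p-value is given.

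Cytosolic ribosomal proteins assemble with ribosomal RNA into the large (Rpl genes) and small (Rps genes) subunits of the ribosome, and the acidic stalk proteins (Rplp genes) recruit elongation factors to it. Their mRNAs typically begin with a C followed by a run of pyrimidines, the terminal oligopyrimidine (TOP) motif, through which mTOR signaling sets their translation. Adult hematopoietic stem cells are known for a low and tightly held rate of protein synthesis, and loss of a copy of several of these genes causes Diamond-Blackfan anemia, a failure of red cell production.

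Many of these genes have a pyrimidine run within 50 bases of the start. The 300-base promoters of RefSeq (GRCm38.p6, 250 bases before to 50 after the start) were matched by symbol for 66 of the 86 genes. Below are 14 windows of 30 bases centered on the RefSeq start, written 5′ to 3′ on the gene's strand, with the longest run of C and T of the window in capitals. They were taken from genes described below, so that long runs (Rpl7a, Rpl27a, Rpl35, Rpl15) can be read beside runs short within the window (Rpl5, Rps4x, Rpsa).
Rpl15, chr14:18270972-18271001, minus strand: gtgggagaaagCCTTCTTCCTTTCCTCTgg
Rpl35, chr2:39005117-39005146, minus strand: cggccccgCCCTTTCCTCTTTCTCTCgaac
Rpl27a, chr7:109519180-109519209, plus strand: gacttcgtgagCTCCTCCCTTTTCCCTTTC
Rpl7a, chr2:26910792-26910821, plus strand: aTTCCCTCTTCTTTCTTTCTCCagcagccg
Rpl13a, chr7:45128731-45128760, minus strand: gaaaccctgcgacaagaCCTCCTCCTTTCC
Rps10, chr17:27635230-27635259, minus strand: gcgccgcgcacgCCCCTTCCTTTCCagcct
Rpl4, chr9:64173372-64173401, plus strand: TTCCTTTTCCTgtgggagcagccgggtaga
Rpl38, chr11:114668565-114668594, plus strand: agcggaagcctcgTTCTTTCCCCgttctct
Rps6, chr4:86857353-86857382, minus strand: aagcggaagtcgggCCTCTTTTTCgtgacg
Rplp2, chr7:141447636-141447665, plus strand: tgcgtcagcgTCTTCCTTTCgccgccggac
Rpsa, chr9:120127751-120127780, plus strand: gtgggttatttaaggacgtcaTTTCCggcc
Rpl37, chr15:5116598-5116627, plus strand: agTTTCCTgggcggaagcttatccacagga
Rpl5, chr5:107900513-107900542, plus strand: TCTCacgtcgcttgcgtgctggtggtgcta
Rps4x, chrX:102189377-102189406, minus strand: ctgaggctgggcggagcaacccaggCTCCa
In these windows the runs held 21 bases at Rpl7a, 19 at Rpl27a, 18 at Rpl35 and 17 at Rpl15, against 4 at Rpl5 and at Rps4x. A window can cut a run at its edge, as at Rpl5. Counted to 50 bases on either side of the start, the longest run was 9 bases at Rpl5, 7 at Rps4x, 15 at Rpl4 and 20 at Rpl27a. Within 50 bases on either side of the start, 51 of the 66 promoters (77.3%, Wilson 95% interval 65.8 to 85.7) had a run of at least 8 pyrimidines, and the share was 31.8% among the 10398 coding promoters of the table whose gene had a WT promoter peak. The median of the longest run was 10 bases in the ribosomal protein promoters and 6 in those coding promoters. Such a run need not lie at the start. At Rpl11 the longest run was 3 bases in the 30-base window and 17 in the wider stretch. The RefSeq start itself was a C in 22 of 66 (33.3%, 23.2 to 45.3), compared with 14.6% of those coding promoters. The intervals cover counting error only, and RefSeq starts were not mapped in these cells. Here and in the motif shares below, the 66 include Rpl10l, Rpl39l, Rpl3l and Rps27rt, which had no WT promoter peak. The 10398 coding promoters set beside them all belong to genes with one.

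Around the start, short letter matches of 9 transcription factor motifs were searched on both strands of the 300-base promoters. They were the ETS core CCGGAAG, the GC box GGGCGG, the CCAAT box CCAAT, the E-box CACGTG and the YY1 motif ATGGCGG. The others were the TATA box TATAAA, NRF1 GCGCATGCG, CRE TGACGTCA and ZBED1 TGTCGCGA. Some motifs can overlap each other in the same promoter. The 120 bases before the start are shown for the 2 subunit genes with the highest pileups (Rpl37, Rpl15), for 3 genes whose ratio passed the 1.5-fold limit (Rpl38, Rpl13a, Rpsa), and for Rps6 and Rplp0. Capitals mark every match to these motifs on either strand.
Rpl37, chr15:5116493-5116612, plus strand: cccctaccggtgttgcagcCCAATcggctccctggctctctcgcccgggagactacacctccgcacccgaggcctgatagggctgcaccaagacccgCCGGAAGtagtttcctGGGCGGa
Rpl15, chr14:18270987-18271106, minus strand: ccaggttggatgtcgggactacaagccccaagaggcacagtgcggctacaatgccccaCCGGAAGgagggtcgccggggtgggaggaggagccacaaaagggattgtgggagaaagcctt
Rpl38, chr11:114668460-114668579, plus strand: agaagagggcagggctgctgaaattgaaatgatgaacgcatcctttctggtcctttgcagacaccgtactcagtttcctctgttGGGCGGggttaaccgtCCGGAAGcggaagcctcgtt
Rps6, chr4:86857368-86857487, minus strand: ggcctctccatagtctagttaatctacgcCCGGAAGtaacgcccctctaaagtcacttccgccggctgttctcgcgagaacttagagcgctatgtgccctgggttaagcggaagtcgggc
Rpl13a, chr7:45128746-45128865, minus strand: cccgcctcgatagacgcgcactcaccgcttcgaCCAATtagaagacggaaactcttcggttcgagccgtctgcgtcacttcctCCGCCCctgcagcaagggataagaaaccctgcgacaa
Rplp0, chr5:115559347-115559466, plus strand: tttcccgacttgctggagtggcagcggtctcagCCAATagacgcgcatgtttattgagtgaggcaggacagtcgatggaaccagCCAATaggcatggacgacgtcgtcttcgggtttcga
Rpsa, chr9:120127646-120127765, plus strand: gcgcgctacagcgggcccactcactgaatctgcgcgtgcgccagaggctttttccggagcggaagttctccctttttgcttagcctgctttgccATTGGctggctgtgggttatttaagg
The ETS core appears in the stretches of Rpl37, Rpl15, Rpl38 and Rps6, and the CCAAT box at 2 places in that of Rplp0. Over all 66 promoters the ETS core was found in 25 (37.9%, Wilson 95% interval 27.1 to 49.9), against 17.6% of the coding promoters with a WT peak and 12.3% of all 16433 coding promoters of the table. The YY1 motif was found in 10 (15.2%, 8.44 to 25.7) against 8.01%, and the CRE in 5 (7.58%, 3.28 to 16.5) against 3.33%. The GC box was found in 40 (60.6%, 48.5 to 71.5) against 64.9%, and the CCAAT box in 20 (30.3%, 20.6 to 42.2) against 38.5%. The TATA box was found in 6 promoters (9.09% against 6.86%), the E-box in 5 (7.58% against 10.2%), NRF1 in 2 (3.03% against 3.64%) and ZBED1 in 1 (1.52% against 0.38%). In the 200 bp around the WT summit, the TATA box stood at 10 of 81 genes (12.3%) and in 2.77% of coding windows. For the other motifs the shares there were 32.1% and 13.4% (ETS core), 50.6% and 58.6% (GC box) and 29.6% and 29.5% (CCAAT box). They were 9.88% and 7.14% for the E-box, 14.8% and 6.55% for YY1 and 3.70% and 2.30% for NRF1. The CRE had 3.70% and 2.57% and ZBED1 1.23% and 0.34%. The median match of the ETS core lay 56 bases upstream of the start and that of YY1 25 bases downstream of it. In the coding promoters with a WT peak these medians were on the same sides, 32 bases upstream and 10 bases downstream. GC content had a median of 57.5%, while that of coding promoters with a WT peak was 61.0%. A match of letters is a description and not a bound site.

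**Figure D1:**
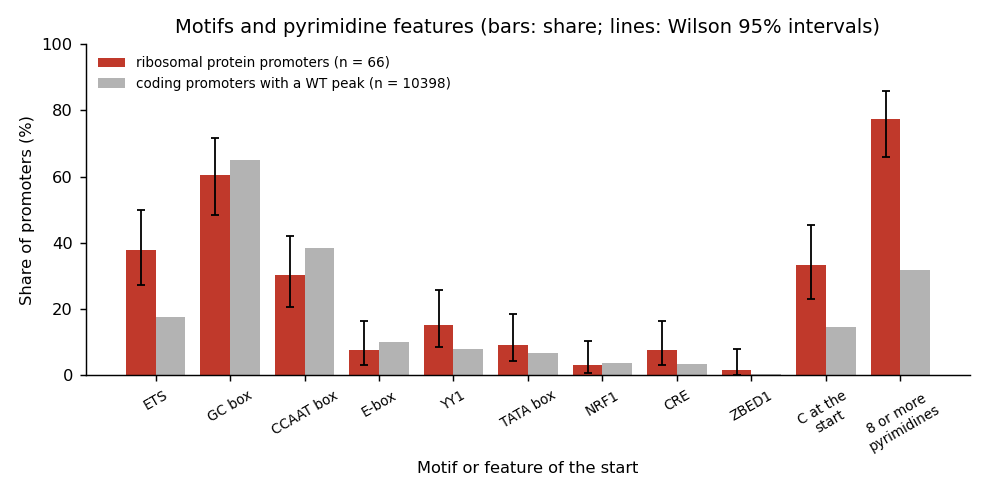
Share of promoters (y axis, percent) that hold each motif or start feature (x axis) in the 66 ribosomal protein promoters (red, with Wilson 95% intervals as lines) and in the 10398 coding promoters with a WT peak (grey). The red bars for the ETS core, the C at the start and the run of 8 or more pyrimidines stand at 37.9%, 33.3% and 77.3%. Each has its interval above the grey bar, and so has the YY1 motif, by a small margin (8.44 to 25.7 against 8.01%). The run was sought within 50 bases on either side of the start.

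In the lists as deposited, nearly all of these genes had an accessible promoter in both genotypes. A promoter peak was present at 81 of 86 genes in WT and at 80 of 86 in KO, and 79 genes (91.9%) had one in both lists. Among all 21755 protein-coding genes on the autosomes and X, 61.1% had a promoter peak in WT, 60.8% in KO and 58.1% in both. The 4 genes without a peak in either list were the paralogs Rpl10l, Rpl39l, Rpl3l and Rps27rt. Each of the 77 subunit genes had a promoter peak in at least 1 list.

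A gene was seen in 1 list only at 3 loci. Rpl8, a large subunit gene on chromosome 15, had a KO peak with a pileup of 14 and none in WT. The pileup is the number of sequenced tags that cover the summit, and a value of 14 lies low among the 80 KO promoters, which ran from 11 to 143. Rps19bp1, also on chromosome 15, had a WT peak of 235 bp with a pileup of 24 and none in KO. Rpl41, the gene of the smallest ribosomal protein, had a WT peak with a pileup of 53 at its start and a second WT peak, with a pileup of 69, whose summit was just past its end. In KO, a single region of 2212 bp (chr10:128547269-128549480) covered the whole gene, and its summit, with a pileup of 60, lay at the far end. The Rpl41 start was therefore inside an accessible region in both lists, although its summit passed the distance rule only in WT.

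More than 1 promoter peak in a list was found at 5 genes, each with several annotated starts. Rpl18 had 2 in each list, and its stronger one (pileups of 52 in WT and 66 in KO) was nearer to a start of the neighbor Sphk2, a sphingosine kinase gene. Its weaker peak was 18 in WT and 23 in KO. Rpl21 had peaks of 43 and 18 in WT and of 48 and 24 in KO. The second Rpl3 peak, 14 in WT and 9 in KO, was nearer to Syngr1. Rps24 had a second peak in WT only, with a pileup of 18, nearer to the RNA polymerase III subunit gene Polr3a. Rps14 had 1 peak in WT and 3 in KO; the 2 extra ones had pileups of 18 and 15, and the latter was nearer to Ndst1. In all, 10 of the 85 peaks of each list had a summit nearer to the start of another coding gene. Without overlap in the other list stood 2 of the 85 WT peaks and 3 of the 85 KO peaks, and the background over coding promoter peaks was 7.64% in WT and 7.28% in KO.

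The level of accessibility spanned a wide range among these promoters, from 11 to 148 (WT) and 11 to 143 (KO), and its center was close to that of other coding promoters. With the strongest peak taken for each gene, the pileups had a median of 35 (WT) and 36 (KO), compared with 32 and 33 over all coding promoters. In WT the 25th percentile was 24 and the 75th was 49, and the KO percentiles were 21 and 53.5. At or above the limit of the top 10% of each list (pileups of 53 in WT and 57 in KO) were 17 of the 85 peaks in WT and 17 of the 85 in KO, while the share over coding promoter peaks was 22.2% in WT and 21.1% in KO. The authors' fold enrichment, which relates the pileup to the local background, had a median of 8.01 in WT and 9.85 in KO, against 8.16 and 9.66 over coding promoters.

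The highest pileup was at Rpl37, a gene of the large subunit, at 148 in WT and 143 in KO. Rpl15, whose protein lies in the large subunit, followed with 117 and 103. Rpl22l1, the paralog of Rpl22, had 108 and 80, which placed a paralog above all but 2 subunit genes in WT. Rps29 had 90 and 89. At the lower end of the genes with a peak in both lists, Rpl4 had 11 in WT and 17 in KO, Rpl35a 12 and 20, Rps4x 13 and 12, and Rpl19 14 and 16. Rpl23, Rpl26 and Rplp1 had 15 each in WT and 21, 18 and 31 in KO. The order of levels was alike in both lists, with a Pearson correlation of the log2 pileups of 0.92 over 79 promoters and of 0.94 over 11306 coding promoters, in which each list's depth is shared by all points.

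**Figure D2:**
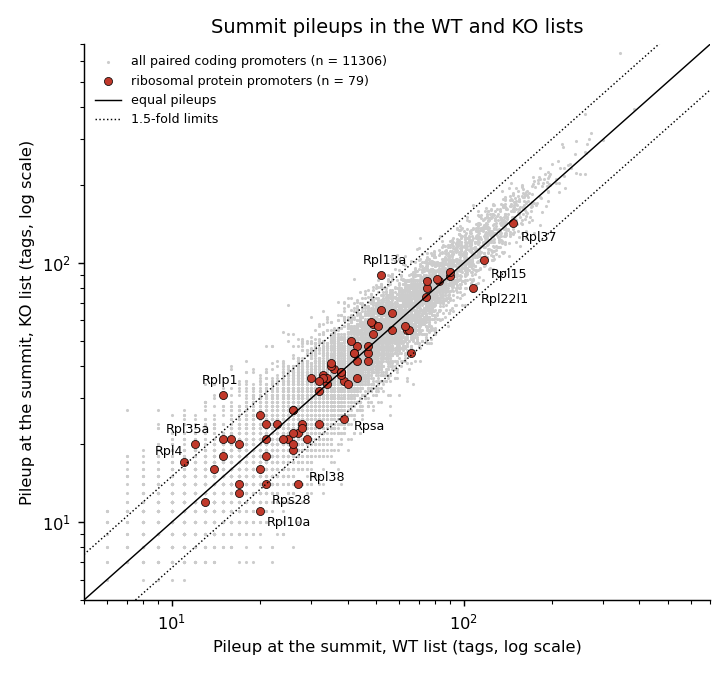
Summit pileup in the KO list (y axis, tags, log scale) against that in the WT list (x axis, tags, log scale) for 79 ribosomal protein promoters (red) and 11306 paired coding promoters (grey). The solid line marks equal pileups and the dotted lines 1.5-fold; 8 red points lie on or past the dotted lines, 4 on each side.

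By subunit, the 42 large subunit genes with a peak had a median of 33.5 in WT and 30.5 in KO, ranging from 11 to 148 and from 11 to 143. The 31 small subunit genes had medians of 38 and 36, ranging from 13 to 90 and from 12 to 92. The ranges of the 2 subunits overlapped along most of their length in each list. The stalk genes stood at 47 and 48 (Rplp0), 15 and 31 (Rplp1) and 42 and 45 (Rplp2) in WT and KO. The paralogs with a peak were Rpl22l1, Rpl36al (81 and 87), Rps27l (32 and 35), a target of p53, and Rpl7l1 (17 and 20). Their parents Rpl22 (39 and 35), Rpl36a (40 and 34), Rps27 (43 and 36) and Rpl7 (75 and 80) were accessible in both lists, so that Rpl22l1 and Rpl36al had the higher pileup of their pair and Rps27l and Rpl7l1 the lower. Of the parents of paralogs without a peak, Rpl3 had 29 and 21, Rpl10 had 47 and 45, and Rpl39 had 38 and 37.

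The X-linked genes Rpl10, Rpl39, Rpl36a and Rps4x had a promoter peak in both lists, with Rps4x the lowest. A fixed set of 9 Diamond-Blackfan anemia genes was accessible in both lists, with a median of 25 in WT and 21 in KO. The set was chosen by hand and may leave out other genes of the disease, on which its median depends. Rps19, the gene mutated most often in that disease, had 65 in WT and 55 in KO. Rps7 (49 and 53), Rps26 (47 and 42), Rps10 (26 and 20), Rps24 (21 and 21) and Rpl35a (12 and 20) lay within the ranges of their subunits and below Rps19. Rpl5 (25 and 21) and Rpl11 (21 and 24), which carry the 5S RNA and bind Mdm2 when ribosome assembly fails, lay below the medians of all ribosomal protein promoters (35 and 36). Rps14, the gene lost in the 5q- syndrome, had 38 in both lists. Rps6, the phosphorylated target of S6 kinase, had 51 and 57.

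**Figure D3:**
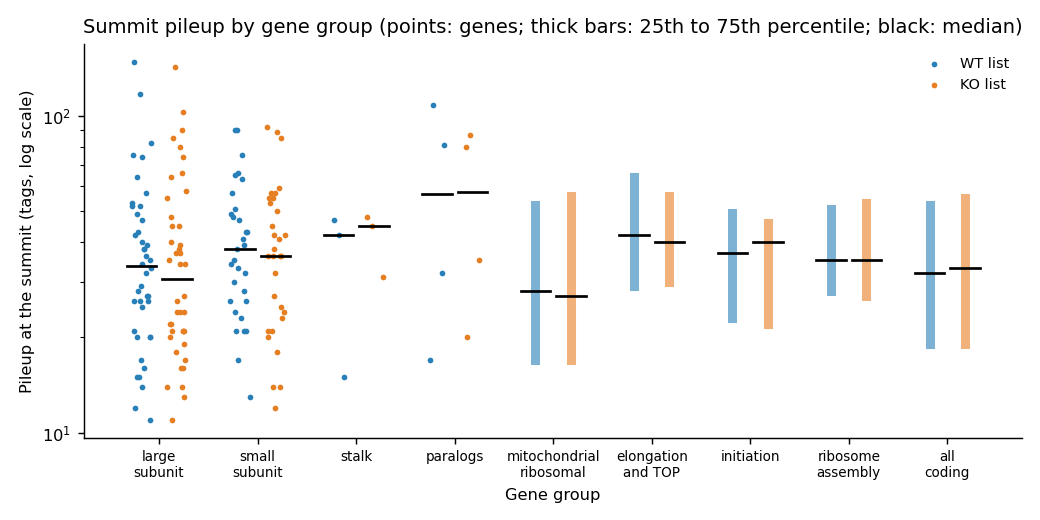
Summit pileup (y axis, tags, log scale) by gene group (x axis) in the WT list (blue) and the KO list (orange). Points are single genes of the large subunit, small subunit, stalk and paralog groups, thick bars run from the 25th to the 75th percentile of larger lists and black lines the medians, which lie between 27 and 57.5; Rps19bp1 is not drawn.

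The summits lay close to the start. The median signed distance to the nearest annotated start was 35 bp upstream in WT and 26 bp upstream in KO, and over all coding promoters it was 23 bp and 25 bp upstream. Within 100 bp of a start were 66 of 81 genes in WT (81.5%) and 67 of 80 in KO (83.8%), whereas the share over coding promoters was 61.7% and 61.0%. These genes have a median of 6 annotated starts and coding genes with a WT promoter peak have 5, which bears on the distance to the nearest. Measured from the single RefSeq start, 41 of 62 genes in WT (66.1%) and 38 of 60 in KO (63.3%) had the summit within 100 bp, compared with 47.5% of coding genes in each list. The summit was upstream of that start in 44 of 62 genes in WT (71.0%) and in 44 of 60 in KO (73.3%), compared with 56.6% and 56.7% of coding genes. The peaks had a median width of 805 bp in WT and 845 bp in KO, against 931 bp and 915.5 bp over coding promoters.

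Between the lists the summits moved little. In the 79 genes with a peak in both, the summit shifted by a median of 38 bp, and in 64 of them (81.0%) by no more than 100 bp. Over coding promoter pairs the median shift was 44 bp and the share 73.2%. The Rps18, Rpl18, Rpl32 and Rpl36al summits were at the same base in both lists, while those of Rpl7l1 and Rpl19 were 393 and 355 bp apart.

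**Figure D4:**
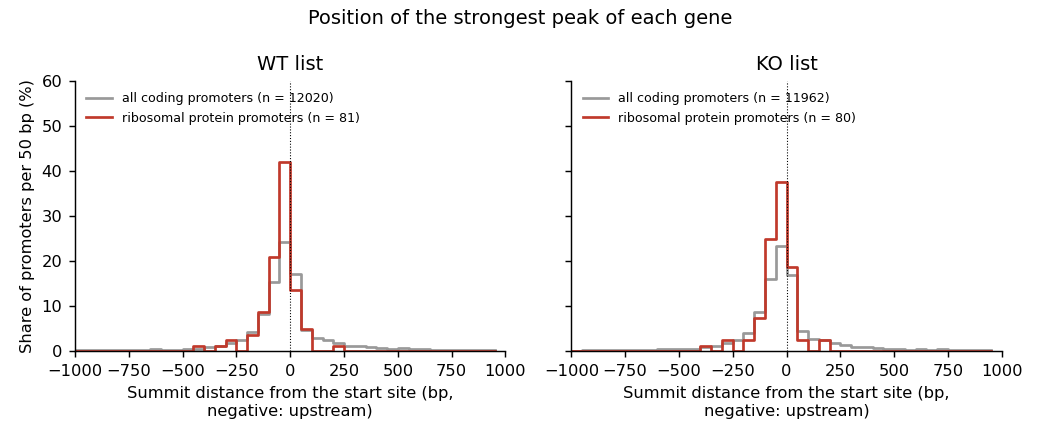
Distribution of the summit's distance from the nearest annotated start (x axis, bp, negative values upstream) as the share of promoters per 50 bp (y axis, percent) for the ribosomal protein genes (red, 81 in WT and 80 in KO) and all coding promoters (grey). In both panels the red line is highest in the 50 bp just upstream of the start.

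Across the whole group, the KO and WT pileups were centered where those of other coding promoters were. The pileup of each list was divided by the list's genome-wide background, 1.19 tags in WT and 1.13 in KO, and the log2 of the KO to WT ratio was taken. Its median was 0.09 in the 79 ribosomal protein promoters and 0.09 in the 11306 paired coding promoters, a value that corresponds to equal pileups. The 25th and 75th percentiles were -0.14 and 0.25 in the ribosomal protein promoters and -0.12 and 0.33 in the coding promoters, with SDs across promoters of 0.34 and 0.36. Relative to the coding median, 38 promoters were higher in KO, 35 were lower and 6 were equal.

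At least 1.5-fold higher in KO than the coding median were 4 of the 79 promoters and at least 1.5-fold lower were 4, and the background was 4.65% higher and 5.81% lower over coding promoters. The shares of the ribosomal protein promoters, 5.06% in each direction, were near that background. With ratios of the authors' fold enrichment the split was 3 higher and 2 lower, where 1.52% of coding promoters were higher and 4.80% lower. Relative to all regions present in both lists it was 3 higher and 5 lower, where the coding shares were 3.18% and 7.85%. The other 71 promoters had log2 ratios between -0.47 and 0.57.

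Rplp1, a stalk gene, had a pileup of 15 in WT and 31 in KO. The log2 of KO to WT was 1.13, with a 95% binomial interval from counting of 0.20 to 2.13. Rpl13a, whose protein also takes part in silencing of inflammatory mRNAs, had 52 in WT and 90 in KO, with a log2 ratio of 0.88 and an interval of 0.37 to 1.40. These were the 2 promoters whose interval lay above the coding median, against a background of 2.71% of coding promoters. The Rpl35a promoter had 12 in WT and 20 in KO (log2 ratio 0.82, interval -0.28 to 1.99). The Rpl4 promoter, whose gene hosts 5 small nucleolar RNA (snoRNA) genes, had 11 and 17 (0.71, -0.46 to 1.95), and its WT summit was nearer to the start of the divergent gene Zwilch. The last 2 intervals include equal levels.

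On the lower side, Rpl38, a gene known for its role in the patterning of the axial skeleton, had 27 in WT and 14 in KO, with a log2 ratio of -0.86 and an interval of -1.91 to 0.12. Rpl10a had 20 and 11 (-0.78, -1.99 to 0.35). Rpsa, whose protein also serves as a laminin receptor, had 39 and 25 (-0.56, -1.34 to 0.21). Rps28, which shares a divergent promoter with the respiratory chain gene Ndufa7, had 21 and 14 (-0.50, -1.59 to 0.54), and lay exactly on the 1.5-fold limit. All 4 intervals include the coding median. The 1 promoter with an interval below the coding median was Rpl22l1 at 108 and 80 (-0.35, -0.78 to 0.08), which is less than 1.5-fold lower, and the background for this call was 1.06%. Just inside the limit, Rps23 had 66 in WT and 45 in KO (-0.47) and Rpl23 had 15 and 21 (0.57). Of the 8 promoters past the limit, 6 had a WT pileup of 27 or less, where a few tags move the ratio. These intervals take tags as independent and leave out the spread between animals.

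**Figure D5:**
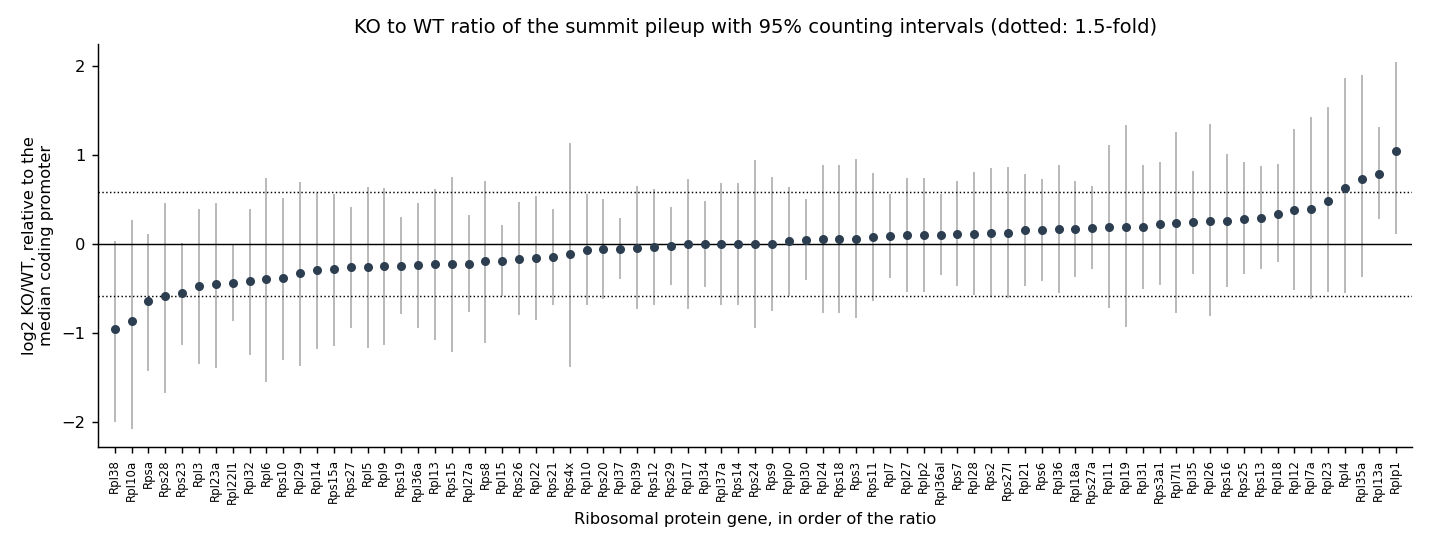
The log2 ratio of KO to WT pileup relative to the median coding promoter (y axis) for 77 of the 79 ribosomal protein genes (x axis, in order of the ratio). Points are the ratios, lines their 95% binomial counting intervals and dotted lines the 1.5-fold limits; Rpl38 is at the low end and Rplp1 at the high end, and most lines cross 0.

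Neighborhood and gene structure were also described. A coding gene on the opposite strand had a start within 1000 bp of the same summit at 15 of the 81 WT genes (18.5%), compared with 17.5% of all coding genes with a WT promoter peak and 42.1% of the mitochondrial ribosomal protein genes. Within their bodies, 30 of the 86 genes (34.9%) held at least 1 snoRNA gene on the same strand, 58 in all. The hosts had a median pileup of 34 in WT and 36 in KO, and the genes without snoRNA genes had 36 and 35.5. Of the ETS-containing promoters, 24 had a WT peak and their median pileups were 38.5 and 40 in the WT and KO lists, and the 38 without the motif had 29 and 32. The 39 promoters with a GC box had 39 and 40 and the 23 without it had 26 and 27. The other motifs did not all go this way. With and without the motif, WT medians were 35.5 and 35 (CCAAT box), 27 and 35 (E-box) and 31.5 and 35 (YY1). They were 39 and 33.5 for the TATA box, 31.5 and 35 for NRF1, 32 and 35 for the CRE and 35 and 35 for ZBED1. No such split over all coding promoters is given here, and a link of motif and pileup was not tested.

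Other parts of the translation machinery were described with the same rule. The mitochondrial ribosomal protein genes had a promoter peak at 76 of 78 genes in WT and 74 in KO, with median pileups of 28 and 27, and 2 of their 72 pairs (2.78%) were at least 1.5-fold higher and 8 (11.1%) lower, beside 4.65% and 5.81% over coding promoters. The 9 elongation factor and other TOP genes all had a peak in both lists, with medians of 42 and 40 and none of the 9 past 1.5-fold. Among them Eef1a1, the main elongation factor that delivers aminoacyl-tRNA, had 80 in WT and 56 in KO, and Tpt1 had 59 and 44. The 27 initiation factor genes had medians of 37 and 40, with 1 higher and 0 lower. The 33 ribosome assembly genes had 35 and 35, with 1 higher and 2 lower. Rack1, a component of the small subunit under another symbol, had 50 in WT and 56 in KO, and Fau, a fusion with a small subunit protein, had a peak in KO only, at 19. In contrast to the genes, 3 of the 294 annotated ribosomal protein pseudogenes (1.02%) had a summit within the window in each list, and the strongest, at Rpl29-ps2 with 130 in WT and 128 in KO, was also a promoter peak of a coding gene.

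Of 8 stem cell markers, 5 (Kit, Hlf, Mecom, Meis1 and Mllt3) had a promoter peak in each list, while Ly6a, Slamf1 and Procr had none. The pileups of the 5 were 28 to 64 in WT and 35 to 68 in KO. Of 14 markers of other cells, 3 had a promoter peak, Cd34 and Cd48 among them, with 7 to 30 in WT and 8 to 37 in KO. Over all coding genes the share with a promoter peak was 61.1% in WT and 60.8% in KO. The stem cell marker count is near that share, so it does not check the identity of the sorted cells. The Med23 promoter had 64 in WT and 85 in KO (log2 ratio 0.50, interval 0.01 to 0.99). That interval includes the coding median of 0.09. The deleted part of the gene was not located here, so this promoter does not check the knockout.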

How the data were processed

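Per the labels and the study's methods, the authors trimmed ATAC-seq reads with Trim Galore, aligned them to mm10 with Bowtie2, used Picard to drop duplicates and mitochondrial reads, and ran the MACS2 peak caller without a fragment model. Versions, the extension length, any Tn5 offset and whether the 2 libraries of a genotype were pooled are not given in the sources used here. The deposited narrowPeak lists, 1 per genotype, hold for each peak a fold enrichment (a ratio of pileup to local background) and −log10 p- and q-values. The score column was not used, and the deposited summit lists repeat the same summits.

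From these, the whole-number pileup and the local background of each peak were solved under the Poisson model of MACS2 (99.99% of peaks in each list within 0.001 of the deposited −log10 p-value, and tested on simulated data). The genome-wide background was the median local background of the 1000 peaks where it was lowest. Start sites came from GENCODE M21, the 19 autosomes and X were used, and the strongest peak was taken for each gene. WT and KO peaks of a gene were paired where they overlapped by at least 1 bp, and of several such pairs that with the highest summed pileup was taken. Intervals of ratios are exact binomial 95% intervals of the 2 pileups and, like the Wilson intervals of shares, cover counting error only. Sequencing depth of the libraries is not given in the lists. With 1 list per genotype no test was made.

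Genes were named by these rules: members without a peak in a list, with more than 1 peak, with the 5 highest and 5 lowest pileups and ratios, past 1.5-fold, or in fixed sets (stalk, p53 pathway, Diamond-Blackfan anemia, 5q- syndrome, Rps6, Rpsa, paralogs with their parents, X-linked, Fau and Rack1). Rpl7a, Rpl27a and Rpl35 (long pyrimidine runs), Rps18 and Rpl32 (unshifted summits), Rpl36al with Rpl36a, and the Rpl7l1 shift were chosen after their values were seen. Some items these rules name are not reported here. Rps4l was not found in the annotation. The members and lists were chosen with earlier results of these data known. Alternatives were a stricter −log10 q, other windows, starts, pairing rules and scales. Python 3.11.15 with NumPy 2.4.6, pandas 2.3.3, SciPy 1.17.1 and pysam 0.24.0 was used.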

Additional observations from a re-analysis of the deposited data

How the results depend on the processing

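No paired analysis was possible because WT and KO are represented by 1 peak list each, and for the same reason no replicate could be left out. The gene counts, peak counts, median pileups, summit positions, widths and motif shares moved by less than their limits (1.5 times for counts, the 95% interval of the median or share for the others) under each alternative run on them. The median KO to WT log2 ratio, 0.09, was 0.00 with raw pileups and 0.30 with fold enrichment, while its difference from the coding median was between -0.03 and 0.02 under all alternatives. The counts past 1.5-fold, 4 higher and 4 lower, depended most on the settings. They were 1 and 1 of 61 pairs at a −log10 q of at least 10 (coding shares 2.77% and 3.55%), 1 and 0 at 2-fold (0.71% and 0.62%), and 1 and 3 of the 64 pairs with summits within 100 bp of each other (4.31% and 5.52%). With fold enrichment 3 were higher and 2 lower. Rpl4 changed sign with a window of 2500 bp, to a relative log2 ratio of -0.87, as another pair of overlapping peaks, with pileups of 29 in WT and 16 in KO, was then taken for it. Of 750 single-gene ratios under alternatives, 749 were inside the gene's counting interval. Alternatives that kept the same pair of peaks, and so the same pileups, could hardly leave it. This count therefore says little about how stable the single-gene ratios are. Without replicate lists, a difference between animals, batches or sorts cannot be told apart from one between genotypes, and at pileups of 11 to 20 only large ratios could be resolved.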
